A study of Mus musculus with 12 samples.

Results

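The insulin-like growth factor (IGF) system was read on the arrays through 10 genes: the ligands Igf1 and Igf2, the receptors Igf1r and Igf2r, and the binding proteins Igfbp2, Igfbp3, Igfbp4, Igfbp5, Igfbp6 and Igfbp7. Probes were assigned to these genes by the accession that the array design gives for each probe. Of the 10 genes, 9 had a probe well above background and entered the tests, among 15226 named genes tested in all. Igf2 had 1 probe, which was not well above background on any of the 12 arrays. Igf1 had 4 probes and Igfbp2 had 2, and the other genes had 1 each.

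The study asked whether the forkhead transcription factors Foxc1 and Foxc2 are needed to maintain podocytes, the epithelial cells that wrap the capillaries of the kidney glomerulus. All 12 mouse samples, controls included, are labelled as carrying a tamoxifen-inducible Cre together with floxed alleles of Foxc1 and of a second Foxc gene, which the genotype labels number differently from sample to sample and the title gives as Foxc2. The promoter that drives the Cre is not given in the sources used here. Podocyte primary cultures, grown out from the glomeruli of adult mice, formed 4 groups: the active form of tamoxifen or a mock treatment, each collected 4 or 7 days later. Isolated glomeruli formed the other 2 groups, tamoxifen and control, both from mice labelled as 8 weeks old with isolation on day 7. The tamoxifen mice received the drug intraperitoneally for 3 days, and the control mice were labelled with no agent. Each group held 2 samples, each on its own one-colour Agilent array, and the labels do not say whether numbered cultures were separate cultures, so the p-values may measure technical spread. Tamoxifen and recombination came together in every tamoxifen group, and the drug alone was not given to mice or cells without floxed alleles.

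IGF ligands signal through Igf1r, a receptor tyrosine kinase that acts on the phosphoinositide kinase and Akt pathway, whereas Igf2r binds Igf2 and carries it to lysosomes. The secreted Igfbp proteins hold the ligands away from or near their receptor, and proteases that cut them set the ligand free. In the kidney, IGF signalling is known to affect filtration and the survival of podocytes, and Igfbp7 binds IGFs more weakly than its relatives do.

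Levels are log2 intensities relative to the 75th percentile of the same array, so that 0 is the level of that percentile, and the level of one gene's probe cannot be set against that of another gene. On all arrays together, 57.9% to 63.4% of spots were well above background and no spot was saturated. Replicate arrays correlated at 0.983 to 0.99 over the named genes tested. Foxc2 was lower by 2.82 (log2) in tamoxifen than in control glomeruli (limma adjusted p = 0.037). The call was lost with normexp (adjusted p = 0.064), with no filter (0.0502) and with the glomerular arrays alone (0.268). It was also lost when a single array was left out, for most arrays. These were the first tamoxifen and both control glomerular samples, both day 4 mock cultures and every day 7 culture. Between tamoxifen and mock cultures Foxc2 differed by -7.87 on day 4 and -8.98 on day 7 (limma adjusted p = 0.0019 and 0.00070). No tamoxifen culture was well above background for it, so the size depends on the background correction. Normexp gave -3.21 and -4.59. Foxc1 was lower on both tamoxifen arrays than on both mock or control arrays in each of the 3 comparisons without passing the test. On day 7 its limma adjusted p of 0.057 became 0.024 with the replicate numbers as a block, 0.0052 with normexp, 0.047 with median scaling and 0.040 with the trend and robust options, and on day 4 it passed with normexp (0.023, against 0.14). All 16 podocyte markers checked were well above background on every array. Their summed level, in multiples of the array's 75th percentile, was 145 to 176 in the cultures and 365 to 729 in the glomeruli. In mock cultures against control glomeruli 12 of the 16 were called lower and 1 higher (26% and 37.6% of all genes), with a median difference of -2.86. In whole glomeruli and in cultures alike, fewer cells of a type and less RNA per cell cannot be told apart.

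The sequences that bear on the results are those before the start sites of Igfbp5 and Igfbp4, which were lower in cultures, and of Igfbp2, which was higher. In the unpaired limma fit on the brightest probe of each gene, only Igfbp2 of the 9 had tamoxifen differences past an unadjusted p of 0.05. Each window is the 250 bases before a RefSeq start in GRCm38.p6, written along the gene, with Igfbp5 at chr1:72874866-72875115 on the minus strand, Igfbp2 at chr1:72824230-72824479 and chr1:72825137-72825386 and Igfbp4 at chr11:99040994-99041243, all 3 on the plus strand. Capitals mark matches to 3 motifs searched on both strands: the forkhead core TGTTTA, the TATA box TATAAA and the GC box GGGCGG, where GC box matches may overlap.
Igfbp5: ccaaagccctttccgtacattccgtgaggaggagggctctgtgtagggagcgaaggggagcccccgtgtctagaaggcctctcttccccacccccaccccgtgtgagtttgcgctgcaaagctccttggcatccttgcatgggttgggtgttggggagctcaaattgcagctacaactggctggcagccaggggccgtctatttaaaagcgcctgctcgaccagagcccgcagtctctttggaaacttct
Igfbp4: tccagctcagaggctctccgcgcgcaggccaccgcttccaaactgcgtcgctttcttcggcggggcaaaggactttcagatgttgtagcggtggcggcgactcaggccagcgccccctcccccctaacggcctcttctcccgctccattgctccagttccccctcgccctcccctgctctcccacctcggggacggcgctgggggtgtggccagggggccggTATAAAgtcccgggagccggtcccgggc
Igfbp2, upstream start: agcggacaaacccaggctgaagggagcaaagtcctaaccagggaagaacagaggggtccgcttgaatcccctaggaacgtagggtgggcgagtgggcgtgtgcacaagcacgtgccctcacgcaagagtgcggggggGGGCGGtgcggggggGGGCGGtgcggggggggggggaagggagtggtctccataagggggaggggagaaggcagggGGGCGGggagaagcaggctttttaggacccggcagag
Igfbp2, downstream start: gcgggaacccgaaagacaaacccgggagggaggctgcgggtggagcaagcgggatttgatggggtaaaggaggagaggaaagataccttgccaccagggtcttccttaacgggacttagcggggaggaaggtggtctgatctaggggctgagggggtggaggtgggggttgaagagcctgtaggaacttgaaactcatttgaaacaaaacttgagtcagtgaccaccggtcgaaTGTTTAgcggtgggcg

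The Igfbp5 window held none of the 3 motifs. The Igfbp4 window held a TATA box whose first base lay 28 bases before the start. The upstream Igfbp2 window held 3 GC boxes, and the downstream one held a forkhead core whose first base lay 16 bases before the start. Across the 14 windows of the 10 genes, that was the only forkhead core match. Of 32851 RefSeq windows of the same length, 12% held the forkhead core, 12.4% the TATA box and 32.7% the GC box, so a match describes letters and not a bound site.

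The IGF genes differed most between culture and glomerulus. Mock cultures were set against control glomeruli, 4 arrays against 2. Igfbp2, Igfbp3, Igfbp6, Igfbp7 and Igf1r were higher in culture, and Igfbp5 and Igfbp4 were lower. That is 7 of the 9 genes called by limma at an adjusted p under 0.05, where 63.6% of all genes were called (37.6% higher and 26% lower), so the share called is near that of the array as a whole. For 6 of the 9 the arrays of mock cultures and control glomeruli did not overlap, as for 71.4% of all genes. The share of all genes that separated every culture from every glomerular sample, tamoxifen groups included, was not counted. Of all the calls 59.1% were higher in culture, and 70.1% with median scaling, which left the directions of the 7 genes as they were. The median difference was 0.70 over the 9 genes and 0.17 over all genes. Glomeruli, day 4 cultures and day 7 cultures were hybridised on 3 slides of 4 arrays, so that tissue and slide cannot be told apart. The plot of levels by array shows the groups side by side.

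**Figure D1:**
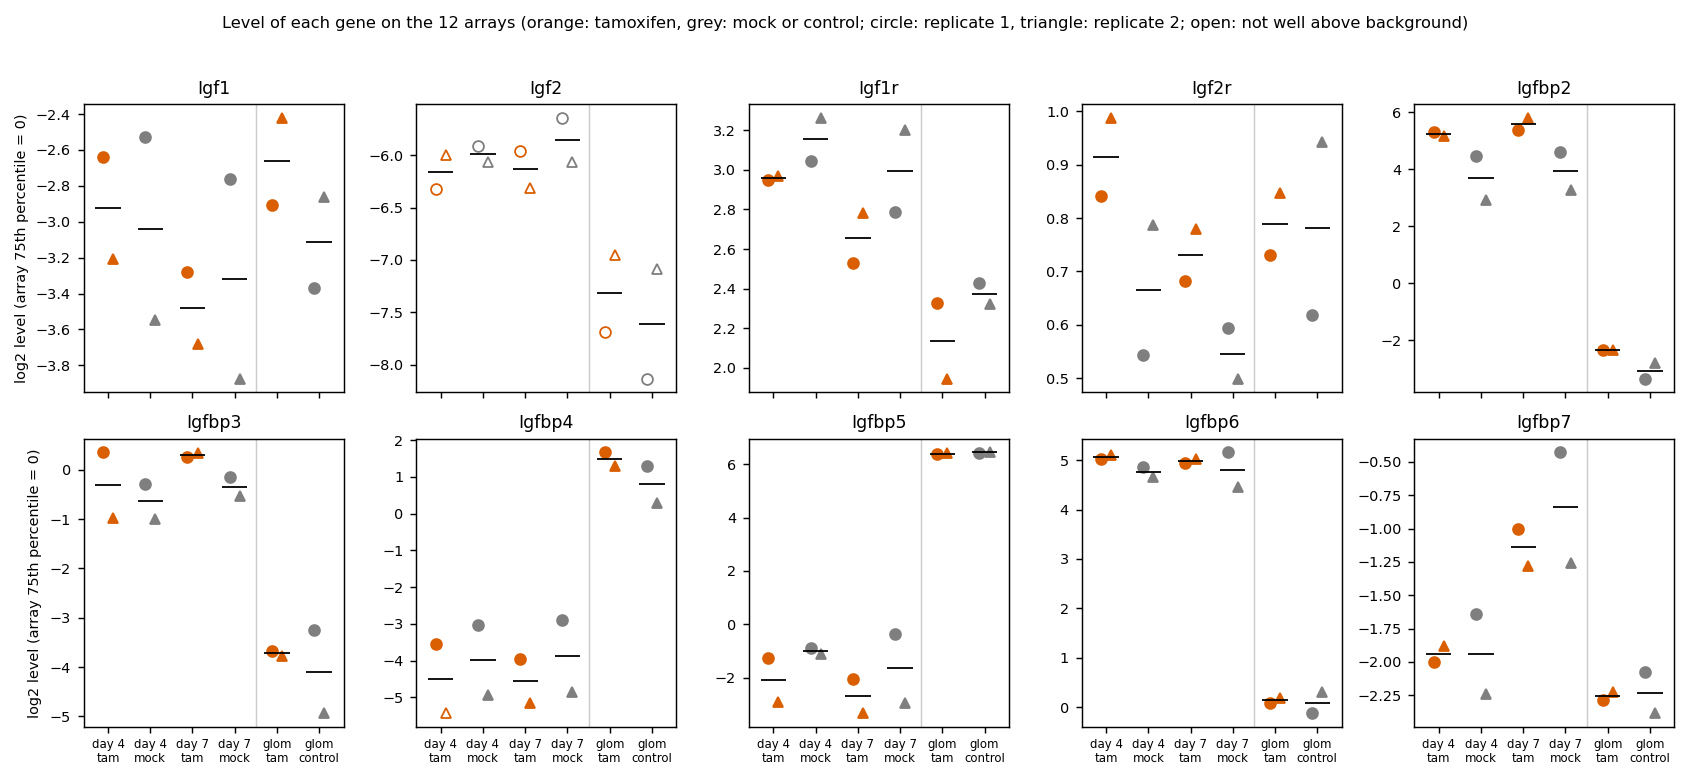
Levels of the 10 genes on the 12 arrays, as log2 intensity relative to each array's 75th percentile, with a panel and an axis range of its own for each gene. Points are arrays (circles replicate 1, triangles replicate 2, open symbols not well above background), bars are means of 2, and the vertical line parts cultures from glomeruli. Igfbp5 and Igfbp4 are lower in all 8 cultures than in all 4 glomerular samples, and Igfbp2, Igfbp3 and Igfbp6 are higher. The share of all genes separated in this way was not counted.

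Igfbp5, a secreted binding protein that also attaches to extracellular matrix, had the widest range of the system. Its log2 level was -1.28 and -2.90 in day 4 tamoxifen cultures, -0.89 and -1.10 in day 4 mock cultures, -2.04 and -3.34 in day 7 tamoxifen cultures and -0.35 and -2.95 in day 7 mock cultures. In tamoxifen glomeruli it was 6.37 and 6.42, and in control glomeruli 6.43 and 6.46. Every culture lay far below every glomerular sample, with no overlap, while the 4 glomerular samples lay within 0.1 of each other. Mock cultures averaged -1.32 and control glomeruli 6.44, a difference of -7.77 (SE 0.73, adjusted p = 5.1e-05), or 218-fold. It was -8.42 without the first and -7.12 without the second day 7 mock culture. The order of group means below the glomeruli ran from day 4 mock through day 7 mock and day 4 tamoxifen to day 7 tamoxifen, and all neighbours among these culture groups overlapped.

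Igfbp4, a binding protein that the protease Pappa cleaves when IGF is bound, followed the same division. Log2 levels were -3.55 and -5.44 in day 4 tamoxifen cultures, -3.04 and -4.92 in day 4 mock cultures, -3.96 and -5.15 in day 7 tamoxifen cultures and -2.89 and -4.86 in day 7 mock cultures. It was 1.67 and 1.30 in tamoxifen glomeruli and 1.31 and 0.30 in control glomeruli. Cultures and glomeruli did not overlap, and 1 day 4 tamoxifen culture was not well above background. Mock cultures averaged -3.93 and control glomeruli 0.80, a difference of -4.73 (SE 0.81, adjusted p = 0.0012), or 26.5-fold.

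Igfbp2, a binding protein with an integrin-binding motif, ran the other way. Its log2 level was 5.30 and 5.15 in day 4 tamoxifen cultures, 4.45 and 2.93 in day 4 mock cultures, 5.38 and 5.81 in day 7 tamoxifen cultures and 4.61 and 3.28 in day 7 mock cultures. In tamoxifen glomeruli it was -2.36 and -2.36, and in control glomeruli -3.36 and -2.81. No culture overlapped any glomerular sample, and mock cultures exceeded control glomeruli by 6.90 (SE 0.47, adjusted p = 9.9e-06), or 119-fold. The gene's other probe differed by 6.21 (SE 0.47, adjusted p = 2.0e-05 over all probes).

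Igfbp6, a binding protein that prefers Igf2, was also higher in culture and varied little within each tissue. The log2 levels were 5.02 and 5.11 in day 4 tamoxifen cultures, 4.86 and 4.66 in day 4 mock cultures, 4.95 and 5.03 in day 7 tamoxifen cultures and 5.16 and 4.45 in day 7 mock cultures. Tamoxifen glomeruli gave 0.09 and 0.18, and control glomeruli -0.13 and 0.30. All 8 cultures lay above all 4 glomerular samples, and mock cultures exceeded control glomeruli by 4.70 (SE 0.20, adjusted p = 9.0e-07), or 26.0-fold.

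Igfbp3, the main carrier of IGF in blood, was also higher in culture, with more spread. Levels on the log2 scale were 0.36 and -0.98 in day 4 tamoxifen cultures, -0.28 and -1.003 in day 4 mock cultures, 0.25 and 0.34 in day 7 tamoxifen cultures and -0.15 and -0.53 in day 7 mock cultures. The levels in tamoxifen glomeruli were -3.67 and -3.77, and in control glomeruli -3.26 and -4.94. The culture and glomerular samples did not overlap, and the difference between mock cultures and control glomeruli was 3.61 (SE 0.51, adjusted p = 0.00045), or 12.2-fold. It was 4.45 without the first and 2.76 without the second control glomerular sample, and remained called.

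Igfbp7 is a vascular and matrix protein related to the IGF binding proteins. Its log2 level was -1.9998 and -1.88 in day 4 tamoxifen cultures, -1.64 and -2.24 in day 4 mock cultures, -1.002 and -1.28 in day 7 tamoxifen cultures and -0.43 and -1.26 in day 7 mock cultures. In tamoxifen glomeruli it was -2.28 and -2.23, and in control glomeruli -2.07 and -2.39. Mock cultures exceeded control glomeruli by 0.84 (SE 0.25, adjusted p = 0.020), but 1 day 4 mock culture lay among the control glomeruli. Without the second control glomerular sample the difference was 0.68 with an adjusted p of 0.127, and without the first day 4 mock culture it was 0.69 with an adjusted p of 0.0502.

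Igf1r, the signalling receptor, was above the array's 75th percentile in both tissues and higher in culture. Log2 levels were 2.95 and 2.97 in day 4 tamoxifen cultures, 3.04 and 3.26 in day 4 mock cultures, 2.53 and 2.78 in day 7 tamoxifen cultures and 2.79 and 3.20 in day 7 mock cultures. Tamoxifen glomeruli gave 2.33 and 1.94, and control glomeruli 2.43 and 2.32. Cultures lay above glomeruli without overlap, and mock cultures exceeded control glomeruli by 0.70 (SE 0.16, adjusted p = 0.0060), or 1.62-fold.

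Igf2r, the clearance receptor, gave no call in any comparison. Its probe was spotted 10 times and averaged per array. The log2 level was 0.84 and 0.99 in day 4 tamoxifen cultures, 0.54 and 0.79 in day 4 mock cultures, 0.68 and 0.78 in day 7 tamoxifen cultures and 0.59 and 0.50 in day 7 mock cultures. It was 0.73 and 0.85 in tamoxifen glomeruli and 0.62 and 0.94 in control glomeruli, inside the range of the cultures. Mock cultures differed from control glomeruli by -0.17, with a 95% interval of -0.46 to 0.11.

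Igf1, the growth hormone-responsive ligand, was read by 4 probes that did not all behave alike. On the brightest probe its log2 level was -2.64 and -3.21 in day 4 tamoxifen cultures, -2.53 and -3.55 in day 4 mock cultures, -3.28 and -3.68 in day 7 tamoxifen cultures and -2.76 and -3.88 in day 7 mock cultures. On that probe it was -2.91 and -2.42 in tamoxifen glomeruli and -3.37 and -2.86 in control glomeruli, overlapping the cultures. Mock cultures differed from control glomeruli by -0.06 on it, with a 95% interval of -0.99 to 0.86.

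Another Igf1 probe divided the tissues. It read -4.25 and -4.51 in day 4 tamoxifen cultures, -4.26 and -4.89 in day 4 mock cultures, -5.60 and -5.22 in day 7 tamoxifen cultures and -5.15 and -6.08 in day 7 mock cultures, the last of these not well above background. In tamoxifen glomeruli it read -3.70 and -2.98, and in control glomeruli -3.87 and -3.27, above every culture. Mock cultures were lower than control glomeruli by 1.53 on this probe, written as a difference of -1.53 (SE 0.34, adjusted p = 0.0055 over all probes). The remaining pair of probes differed by -0.16 and -0.17 (limma adjusted p = 0.73 and 0.33). Only the probe at -1.53 was called, so the size and the call rest on the probe. The probe at -0.17 read higher in tamoxifen cultures (-4.77, -4.36, -4.91 and -4.70) than in tamoxifen glomeruli. There it read -5.15, not well above background, and -5.19. The probe-by-probe fit was added after the data were seen, and which transcripts each probe reads was not tested.

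Tamoxifen cultures set against tamoxifen glomeruli, a comparison of other samples added after the data were seen, called the same 7 genes in the same directions. Of all genes, 67.2% were called there. The differences were -8.78 for Igfbp5, -6.01 for Igfbp4, 7.77 for Igfbp2, 4.89 for Igfbp6, 3.71 for Igfbp3, 0.72 for Igfbp7 and 0.67 for Igf1r. Igf1 differed by -0.54 and Igf2r by 0.03, neither called.

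**Figure D2:**
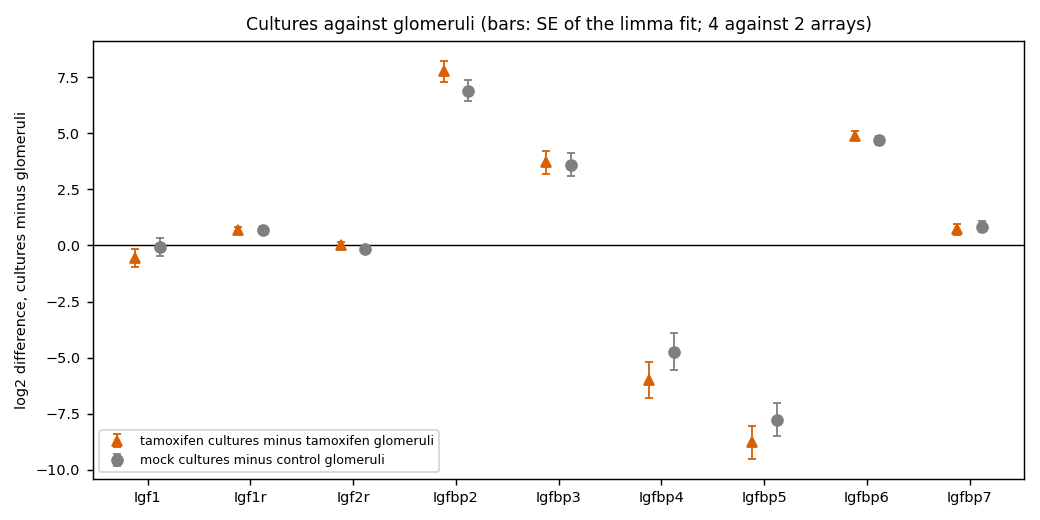
Difference between cultures and glomeruli in log2 units for the 9 tested genes, cultures minus glomeruli, with bars of 1 SE from limma. Triangles set 4 tamoxifen cultures against 2 tamoxifen glomerular samples and circles set 4 mock cultures against 2 control glomerular samples; the pairs lie on the same side of 0 for the 7 called genes.

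The cell makeup of the samples moved with this division. Of 15 endothelial markers, 11 or 12 were well above background in the cultures and all 15 in the glomeruli, with a summed level of 8.63 to 17.1 in cultures and 213 to 312 in glomeruli. All 13 mesangial and mural markers were well above background throughout. Of these 9 were called lower and 2, the smooth muscle genes Acta2 (6.15) and Tagln (4.85), higher in mock cultures than in control glomeruli, with a median of -0.99, while their sum was 441 to 574 in cultures and 56.7 to 104 in glomeruli. Of 14 tubule markers, 6 to 8 were well above background in cultures and all 14 in glomeruli, with sums of 0.738 to 1.097 in cultures and 172 to 448 in glomeruli. The 10 parietal epithelial markers summed to 103 to 117 in cultures and 24.3 to 28.6 in glomeruli. Of these 6 were called higher and 2 lower in mock cultures than in control glomeruli, and 7 to 9 were well above background in cultures and 9 in glomeruli. The 8 fibroblast markers tested summed to 71.0 to 189 in cultures and 19.6 to 52.2 in glomeruli. Only 4 of the 8 were called higher and 3 were called lower in mock cultures than in control glomeruli. The part of these cell types in the binding protein differences was not tested.

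The tamoxifen comparisons asked whether the IGF genes differed after Cre was activated, and none of the 9 was called in any of the 3. In glomeruli 0 of the 9 genes were called, against 2.62% of all genes, and none had an unadjusted p under 0.05. In day 4 cultures 0 of 9 were called, against 0.21% of all genes, and in day 7 cultures 0 of 9, against 0.972%. In each culture comparison 1 gene, Igfbp2, had an unadjusted p under 0.05 in the unpaired fit on the brightest probe of each gene. With the replicate numbers as a block within the cultures, a fit added after the data were seen, Igfbp4 and Igf1r also passed it on day 7. None of the 9 was called there. With 2 arrays a group an exact permutation test of a single gene cannot go below p = 0.333, so only the limma fit across all genes was used. The median tamoxifen difference over the 9 genes was 0.05 in glomeruli, 0.11 on day 4 and -0.16 on day 7, against -0.05, 0.02 and 0.00 over all genes.

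**Figure D3:**
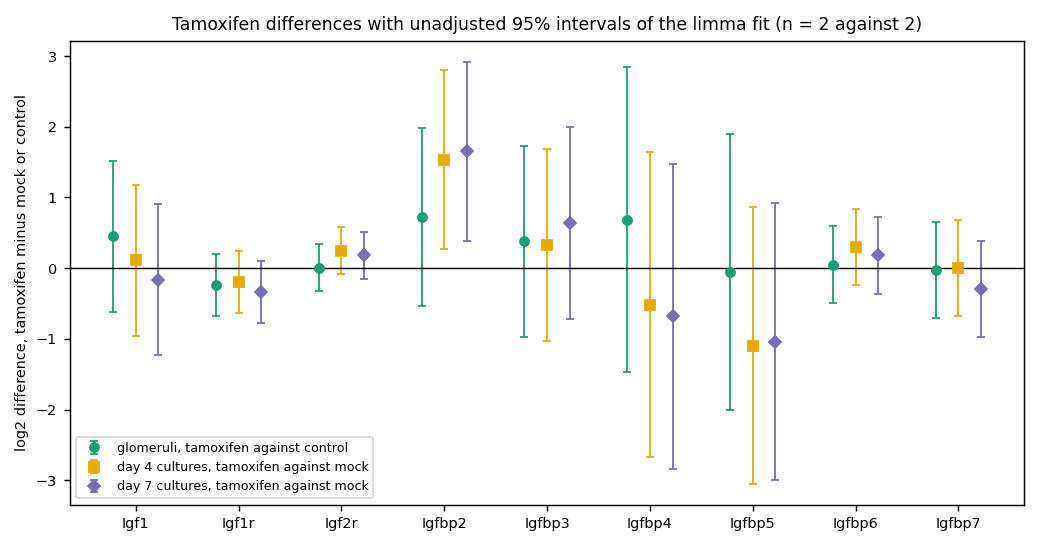
Tamoxifen minus mock or control difference in log2 units for the 9 tested genes in glomeruli, day 4 cultures and day 7 cultures, with unadjusted 95% intervals from the unpaired limma fit, 2 arrays against 2. The intervals of Igfbp2 in the cultures lie above 0 before adjustment over all genes, and the intervals of the other genes include 0.

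Igfbp2 was higher on both tamoxifen arrays than on both mock or control arrays in all 3 comparisons. In day 4 cultures it averaged 5.23 ± 0.10 with tamoxifen and 3.69 ± 1.08 with mock treatment (SD, n = 2 each), a difference of 1.53 (SE 0.55, 95% interval 0.27 to 2.80) with an unadjusted p of 0.023 and a limma adjusted p of 0.35. In day 7 cultures it averaged 5.597 ± 0.30 with tamoxifen and 3.94 ± 0.94 with mock treatment (SD, n = 2 each), a difference of 1.65 (SE 0.55, 95% interval 0.39 to 2.92) with an unadjusted p of 0.017 and a limma adjusted p of 0.25. Groups that did not overlap, with tamoxifen higher, were common: 29.2% of all genes on day 4 and 22.4% on day 7.

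The size of the Igfbp2 difference depended on the numbered culture. Within the same-numbered pairs, tamoxifen minus mock was 0.84 and 2.22 on day 4 and 0.78 and 2.53 on day 7. The second mock culture was lower than the first by 1.53 on day 4 and by 1.33 on day 7, whereas the tamoxifen cultures of a day differed by 0.15 and 0.42. Without the second mock culture the difference was 0.77 on day 4 and 0.99 on day 7, and without the first it was 2.30 and 2.32. The other Igfbp2 probe gave 1.56 and 1.70, neither called. Taking the mean of both days, a step added after the data were seen, gave 1.59 (SE 0.39) with a limma adjusted p of 0.059, where 5.1% of all genes were called.

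In glomeruli Igfbp2 averaged -2.36 ± 0.0039 with tamoxifen and -3.08 ± 0.39 in controls (SD, n = 2 each), a difference of 0.72 with a limma adjusted p of 0.54 and a 95% interval of -0.54 to 1.99. There 19.8% of all genes had both tamoxifen arrays above both control arrays. With the 4 glomerular arrays fitted alone the interval was 0.07 to 1.38 before adjustment and the adjusted p was 0.34. The response of glomeruli minus the mean response of the cultures was -0.87 (95% interval -2.42 to 0.68), not called, where 1.08% of all genes were called.

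No other binding protein had an unadjusted p under 0.05 with tamoxifen in the unpaired fit, and the intervals of their differences varied in width. Igfbp5 in glomeruli differed by -0.05, with a 95% interval of -2.005 to 1.90 when all arrays share 1 spread and of -0.42 to 0.31 with the glomerular arrays alone. Its tamoxifen difference was -1.10 (95% interval -3.05 to 0.86) on day 4 and -1.04 (95% interval -2.99 to 0.92) on day 7. Igfbp4 differed by 0.68 in glomeruli, -0.51 on day 4 and -0.68 on day 7, with unpaired intervals reaching beyond 1 unit on both sides.

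The same-numbered cultures give narrower intervals for Igfbp4, whose cultures of a group lay far apart. Within the pairs, tamoxifen minus mock was -0.52 and -0.51 on day 4 and -1.08 and -0.29 on day 7, lower with tamoxifen in all 4. With the numbers as a block within the cultures, a fit added after the data were seen, the 95% interval was -1.08 to 0.05 on day 4 (limma adjusted p = 0.27) and -1.25 to -0.12 before adjustment on day 7 (adjusted p = 0.16). The mean of both days was -0.60 (95% interval -0.998 to -0.20 before adjustment, limma adjusted p = 0.065), where 15.3% of all genes were called, so the gene was not called in any of these fits. Igfbp5 and Igf1r were also lower with tamoxifen in all 4 pairs, as were 24.6% of all genes, and Igfbp2, Igfbp3 and Igf2r were higher in all 4, as were 27.7%. Their blocked means of both days were -1.07 for Igfbp5, -0.27 for Igf1r, 1.59 for Igfbp2, 0.48 for Igfbp3 and 0.22 for Igf2r, with limma adjusted p of 0.14, 0.096, 0.054, 0.24 and 0.12.

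Igfbp6 differed by 0.05, 0.30 and 0.18 in glomeruli, day 4 and day 7 cultures, with intervals that stayed between -0.49 and 0.84. Igfbp3 differed by 0.38, 0.33 and 0.63, and Igfbp7 by -0.03, 0.00 and -0.30, in the same order. None of these was called.

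The receptors showed small differences. Igf1r was lower by 0.24 in tamoxifen glomeruli, by 0.20 in day 4 and by 0.34 in day 7 tamoxifen cultures on average, with unpaired 95% intervals of -0.67 to 0.20, -0.63 to 0.24 and -0.77 to 0.10. With the block within the cultures its 95% interval was -0.50 to 0.11 on day 4 (limma adjusted p = 0.40). On day 7 it was -0.64 to -0.04 before adjustment (limma adjusted p = 0.18). Both tamoxifen arrays lay below both mock arrays on each culture day, as they did for 21.4% and 18.9% of all genes. Igf2r differed by 0.01, 0.25 and 0.19, with 95% intervals of -0.33 to 0.34, -0.08 to 0.58 and -0.15 to 0.52. Igf1 differed by 0.45, 0.11 and -0.16 on its brightest probe, and no Igf1 probe was called. The probe that was dimmest on average read -4.77 and -4.36 in day 4 tamoxifen cultures and -5.28 and -5.39 in day 4 mock cultures, neither mock array well above background, so that the mock level is only a bound. The fitted difference was 0.77 on day 4 (unadjusted p = 0.0015, limma adjusted p = 0.15 over all probes) and 0.34 on day 7 (adjusted p = 0.50). A test of the difference between the day 7 and day 4 tamoxifen responses in limma called 0 of the 9 genes and 0% of all genes, and gave an unadjusted p under 0.05 for 137 of 15226.

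Markers of other cells differed between the glomerular groups too. The tubule markers summed to 336 and 448 in tamoxifen glomeruli and to 172 and 206 in control glomeruli, and the red cell markers to 0.791 and 7.36 in tamoxifen and 39.7 and 88.7 in control glomeruli. The podocyte markers summed to 365 and 510 in tamoxifen and 545 and 729 in control glomeruli, with 2 of 16 called lower (2.62% of all genes were called in either direction). In the same order, the endothelial sums were 213 and 232 against 257 and 312, and the immune sums 4.97 and 6.87 against 9.66 and 10.2. The fibroblast sums were 38.7 and 52.2 against 19.6 and 35.3. The sums of the mesangial and mural and of the parietal epithelial markers overlapped between the groups. Their part in the IGF gene values was not tested.

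Time in culture gave no call among the 9 genes in mock cultures, day 7 against day 4, where 0.0328% of all genes were called. Igfbp7 had the only unadjusted p under 0.05. It averaged -0.84 ± 0.59 on day 7 and -1.94 ± 0.42 on day 4 (SD, n = 2 each), a difference of 1.101 (SE 0.29, 95% interval 0.42 to 1.78) with an unadjusted p of 0.0057 and a limma adjusted p of 0.29. In tamoxifen cultures it differed by 0.80 between the days, with a limma adjusted p of 0.75. All 4 day 7 cultures lay above all 4 day 4 cultures for Igfbp7, a split for which the share of all genes was not counted. In the mock cultures alone 18.3% of all genes had both day 7 above both day 4 arrays. The days were hybridised on different slides, so that day and slide cannot be told apart.

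The numbered cultures of a group differed in a repeated way. Igf1, Igfbp4 and Igfbp5 were higher in the first than in the second culture of all 4 culture groups, by 0.40 to 1.11, 1.19 to 1.97 and 0.21 to 2.60. Igf1r was higher in the second culture of all 4, by 0.02 to 0.42. Of all genes, 16.4% were higher in the first culture of all 4 groups and 20.4% in the second. The 11 immune markers summed to 15.4, 22.3, 13.6 and 21.0 in the first cultures (day 4 tamoxifen, day 4 mock, day 7 tamoxifen, day 7 mock) and to 12.4, 12.99, 8.69 and 11.97 in the second cultures of the same groups, and their part in the Igf1 levels was not tested.

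**Figure D4:**
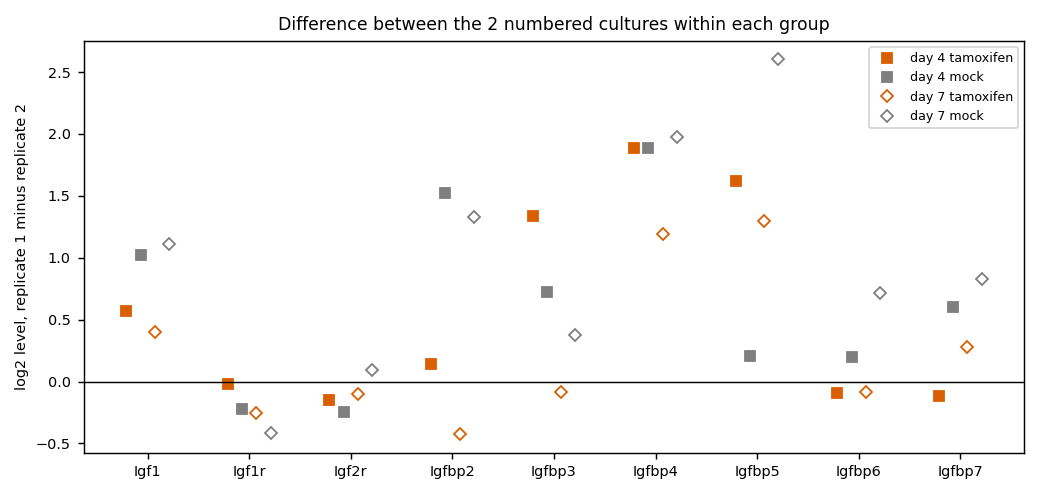
Log2 level in the first minus the second numbered culture of each culture group for the 9 tested genes; squares are day 4 and open diamonds day 7, orange tamoxifen and grey mock. Igf1, Igfbp4 and Igfbp5 lie above 0 in all 4 groups and Igf1r below 0, and Igfbp2 lies above 1 in the mock groups.

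Around the 10 genes, 5 lists of pathway genes were read in the same fits. Among carriers, proteases and stanniocalcins, 10 of 13 genes were tested, and in mock cultures against control glomeruli 6 were higher and 3 lower, where 37.6% and 26% of all genes were. Higher were the gelatinase Mmp2 (3.98, SE 0.18), the protease inhibitor Stc2 (3.51, SE 0.29), the Igfbp4 protease Pappa (2.33, SE 0.21) and the lysosomal protease Ctsd (2.00, SE 0.12). Lower were Igfbp1 (-7.06, SE 0.55), the acid-labile carrier subunit Igfals (-3.32, SE 0.40) and the protease Pappa2 (-3.07, SE 0.51). The list's median difference was 1.16, against 0.17 over all genes.

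Of the IGFBP-related secreted proteins 8 of 9 were tested, 6 were higher and 0 lower in mock cultures than in control glomeruli (37.6% and 26% of all genes), with a median of 2.02. The matricellular genes Ccn4 and Ccn1 were higher by 4.86 (SE 0.52) and 4.72 (SE 0.22), Kazald1 by 4.04 (SE 0.28) and the protease Htra4 by 2.11 (SE 0.51). Esm1, an endothelial proteoglycan gene, differed by -2.08 with an adjusted p of 0.059 in limma.

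All 28 genes of insulin and IGF receptor signalling were tested, with 10 higher and 7 lower in mock cultures than in control glomeruli and a median of 0.03, so that the share called was near the 63.6% of all genes. The adaptor Grb10, which dampens receptor signalling, was higher by 2.71 (SE 0.14) and the receptor substrate Irs2 by 1.07 (SE 0.23). The transcription factor Foxo3 was higher by 0.97 (SE 0.32) and the adaptor Shc1 by 0.91 (SE 0.09). The mTOR inhibitor Tsc2 differed by -1.55 (SE 0.12), the receptor substrate Irs1 by -1.18 (SE 0.15), the transcription factor Foxo1 by -0.94 (SE 0.11) and the adaptor Sh2b2 by -0.89 (SE 0.26), all called lower.

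In the growth hormone axis, 2 of 8 genes were higher and 2 lower in mock cultures (37.6% and 26% of all genes): the signalling suppressor Socs2 (1.48, SE 0.22) and the receptor Ghr (0.91, SE 0.16) were higher, and Cish (-0.999, SE 0.32) and the transcription factor Stat5b (-0.78, SE 0.12) were lower. Of the Igf2 mRNA-binding proteins and imprinted genes 11 of 13 were tested, 3 were higher and 6 lower, against the same shares. The imprinted genes Peg3 and Ndn were higher by 2.79 (SE 0.26) and 1.99 (SE 0.15), and the mRNA-binding protein gene Igf2bp2 by 1.41 (SE 0.19). The cell cycle inhibitor Cdkn1c, an imprinted gene expressed in mature podocytes, differed by -8.14 (SE 0.26), Dlk1 by -6.37 (SE 2.12), Mest by -3.33 (SE 0.55) and Plagl1 by -1.13 (SE 0.16), all called lower.

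With tamoxifen, 1 gene of these lists was called in glomeruli, against 2.62% of all genes, and 0 in either culture comparison, against 0.21% and 0.972%. Plagl1, an imprinted zinc finger transcription factor, had log2 levels of 2.93 and 2.92 in tamoxifen glomeruli, against 4.21 and 4.35 in control glomeruli. Its groups did not overlap, as held in that direction for 28.1% of all genes, and the difference was -1.35 (SE 0.19, limma adjusted p = 0.022). The call was lost with the glomerular arrays alone (adjusted p = 0.268), with normexp (0.064) and without the first tamoxifen (0.084) or the first control sample (0.063). Among genes not called in glomeruli, Mmp2 differed by 0.87 (adjusted p = 0.069), Irs1 by -0.77 (adjusted p = 0.065) and Ghr by 0.68 (adjusted p = 0.094). Of the 28 signalling genes 25 had a lower mean in tamoxifen glomeruli, 0 of them called, with a median of -0.19 against -0.05 over all genes.

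In the cultures the largest differences of the lists that missed the threshold were those of Insrr, a receptor related to the insulin receptor, with 3.01 on day 4 and 3.03 on day 7 (adjusted p = 0.26 and 0.20). Grb14, an adaptor that inhibits insulin receptor signalling, differed by 1.37 and 1.57 (adjusted p = 0.14 and 0.070), and Pappa by 0.78 and 1.00 (adjusted p = 0.28 and 0.13).

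The 5 binding protein genes Igfbp2, Igfbp3, Igfbp4, Igfbp5 and Igfbp6 had group means at least 2 log2 units apart, and the 3 genes most like each in pattern over the 12 arrays were taken by Pearson's r among 3825 genes with a span as large. For Igfbp2 they included Rnf149 and Ddr1, at 0.996 and 0.995. For Igfbp3 they were Pdgfa, Gm11110 and Fkbp10, at 0.983 to 0.987, and for Igfbp4 Rtn4rl1, Tbx2 and Hopx, at 0.995 to 0.996. For Igfbp5 they were Abi3, Ldb2 and Phf11b, at 0.995, and for Igfbp6 Rab32, Ctsd and Col11a1, at 0.998 to 0.999. The arrays fall into cultures and glomeruli, and between 862 and 1433 of the candidates exceeded 0.9 for each gene, so these values largely describe the division between the tissues. Among the members, Igfbp4 and Igfbp5 correlated at 0.979 and Igfbp2 and Igfbp6 at 0.985 over the same arrays.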

How the data were processed

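Total RNA of 12 mouse samples was labelled and hybridised to Agilent one-colour arrays, and Agilent Feature Extraction (version 11.5.1.1) gave the deposited intensity values, which the file headers name as processed signals, already background-subtracted. Log2 values of the same arrays, centred otherwise, are in a table deposited by the authors, which served as an alternative. Here log2 of the processed signal minus each array's 75th percentile was taken, control spots and outlier flags were left out, and spots of a probe were averaged. Of 39429 probes, 26581 had 1 gene symbol through their accession and RefSeq names, and 12848 had none. Probes well above background on at least 2 arrays stayed, and the brightest probe stood for its gene. limma 3.58.1 in R 4.3.3 fitted all 6 groups together (6 residual degrees of freedom), with Benjamini-Hochberg adjustment over 15226 genes and calls at an adjusted p under 0.05. Precision is limited by the number of arrays. The fit was also run on simulated data with independent noise on each array. Same-numbered cultures here deviated together, so that run does not show the error rate in these data.

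The members and lists were chosen with earlier results of these data known. The genes named are all members with every probe that disagrees, Foxc1 and Foxc2, up to 4 called genes per pathway list and direction (otherwise up to 2 with the largest differences as values, with further ones chosen after their values were seen), and the 3 genes most like each member whose group means span 2 log2 units. A gene that this rule names is not reported here. Same-numbered cultures deviated together in every pair of culture groups (correlation 0.395 to 0.551), so the numbers were treated as pairs in the blocked fits. The labels do not say what cultures of the same number share. The glomerular pair gave 0.21, and glomeruli with cultures -0.04 to 0.09. Alternatives covered background correction, scaling, filters, the choice of probe, the replicate block, the arrays fitted and leaving out each array. Coordinates are those of GRCm38.p6.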

Additional observations from a re-analysis of the deposited data

How the results depend on the processing

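The count of called IGF genes stayed 0 under each of the 21 to 25 alternatives run for the 3 tamoxifen comparisons, the 2 tests of differences between responses and the day comparison. In mock cultures against control glomeruli it was 7, and 6 to 8 across 22 alternatives: 6 to 7 with an array left out, 6 with probes required above background on all 12 arrays, where Igfbp4 was not tested, and 8 with no filter, where the dim Igf2 probe entered. The 7 called genes kept their direction in all 153 alternative values and their call in 151, the exceptions being Igfbp7 at 0.68 without the second control glomerular sample and 0.69 without the first day 4 mock culture. Normexp gave 2.45 for Igfbp3, -3.31 for Igfbp4 and 6.16 for Igfbp2. Of the 27 tamoxifen differences, none called, 12 kept their sign throughout and the others changed it in 33 of 645 values. Many of the 645 values could not change sign. Fits without an array of another group, with the replicate block or with the trend and robust options leave a difference of group means as it was. The mean of both days also counts under each day. Many of the 153 values were fixed in the same way, and they include tamoxifen cultures set against tamoxifen glomeruli. The replicate block changed no call among the 9 genes: the counts remained 0 and 7, and the Igfbp2 adjusted p was 0.28 on day 4 and 0.21 on day 7 (0.20 and 0.16 with the block within the cultures alone). A slide block gives the same tamoxifen differences, since each comparison lies within 1 slide.

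Counts over all genes moved more. In glomeruli 399 genes were called, against 5 with normexp, 257 with no filter, 0 with the glomerular arrays alone and 79 to 494 with an array left out. On day 4, 32 were called, against 4989 with normexp (93.8% of them higher, with the median of all genes at 0.19). Median scaling gave 48, quantile normalization 52 and the trend and robust options 82. The replicate block gave 110, the block within the cultures 193, and the culture arrays of both days fitted alone 18. On day 7, 148 were called, against 60 with normexp, 245 and 653 with the blocks and 39 with the culture arrays of both days alone. The day 4 and day 7 counts also moved with most single arrays left out. The difference between glomerular and culture responses gave 164, against 0 with normexp, 102 with no filter, 254 with the block and 6 to 367 with an array left out, and the day comparison 5, against 0 to 10. Median scaling moved the median of all genes between tissues to 0.41. The causes were not tested. With 2 arrays a group, differences of the size of the Igfbp5 intervals could not be resolved.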
